A study of Mus musculus with 18 samples.

Results

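Nuclear genes of the mitochondrial respiratory chain were followed in granulosa cells of mice that lack the progesterone receptor (PGR) or 1 of its isoforms. The genes were taken by name: every symbol that begins with Nduf, Sdh followed by a letter from a to d, Uqcr, Cox followed by a digit from 4 to 8, or Atp5. This rule found 100 of the 24963 genes in the deposited tables. Complex I contributed 47 of them, complex II 8, complex III 8, complex IV 20 and complex V 17, where Ndufa4 and its paralogue Ndufa4l2 were counted with complex IV. By role, 20 encode core subunits, 56 accessory subunits, 9 alternative isoforms and 12 assembly factors. The other 3 are copies, of which Ndufa11b and Ndufs5-ps are annotated as transcribed pseudogenes. Of the 13 subunits that the mitochondrial genome itself encodes, 0 were matched in the deposited tables, so they could not be analysed here.

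The respiratory chain sits in the inner mitochondrial membrane. Complexes I and II pass electrons to ubiquinone, complex III passes them on to cytochrome c and complex IV to oxygen, and the proton gradient built on the way drives ATP synthesis by complex V. Most subunits are encoded in the nucleus and imported, dedicated assembly factors help to build each complex, and several complex IV subunits have alternative isoforms that are restricted to certain tissues or conditions. In granulosa cells the chain is of interest because the ovulatory surge of luteinizing hormone induces PGR and switches these cells towards steroid synthesis, which starts inside mitochondria. The study asked whether PGR affects mitochondrial metabolism in granulosa cells before ovulation, and the transcripts of the chain bear on that question.

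The 18 libraries came from 3 strains, each with 3 KO and 3 WT libraries. PRKO mice are null for both PGR isoforms (allele Pgr tm1Bwo), PRAKO mice for PGR-A alone (Pgr tm1Omc) and PRBKO mice for PGR-B alone (Pgr tm2Omc), and each strain had its own WT group. All females were 21 to 27 days old, had received 5 IU eCG and, 46 h later, 5 IU hCG, and were killed 8 h after hCG, so that every group, WT included, was stimulated with both hormones. The alleles were present in the whole animal and not only in granulosa cells. Each library held granulosa cells pooled from 3 mice, collected by puncturing follicles.

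Values are in TPM, a unit of transcript abundance that is corrected for transcript length and scaled to a fixed total per library. They were summed per gene and rescaled so that the protein-coding genes of each library sum to 1000000, because a single abundant non-coding RNA, Rn7s2, took between 24.1% and 47.8% of the deposited TPM. Read depth is not given by TPM, so no counting error can be stated. Summed Pgr transcripts did not separate the genotypes in PRKO (KO 3.98 to 6.99 TPM, WT 3.89 to 5.30 TPM) or PRBKO (KO 5.15 to 7.98 TPM, WT 2.99 to 13.3 TPM), and Pgr was higher in the PRAKO KO libraries (18.4 to 26.0 TPM) than in the PRAKO WT libraries (2.20 to 2.69 TPM). A gene-level sum does not tell disrupted from intact transcripts, so it does not check the labels, and KO and WT are used here as labelled. Zbtb16, a transcription factor chosen for this purpose after its values were seen, was lower in every KO than in every WT library of its strain (PRKO 3.63 to 7.85 TPM in KO and 79.1 to 96.1 TPM in WT, PRAKO 20.4 to 22.7 TPM in KO and 93.2 to 103 TPM in WT, PRBKO 52.7 to 61.2 TPM in KO and 94.9 to 98.5 TPM in WT). Granulosa markers such as Foxl2 (68.9 TPM or more) and Inha (3451 TPM or more) were present in all libraries, but marker levels differed between KO and WT. Foxl2 averaged 75.7 TPM in KO and 108 TPM in WT of PRBKO, 100 and 79.8 TPM in PRAKO, and 112.5 and 103 TPM in PRKO. Fshr averaged 28.6 TPM in KO and 101 TPM in WT of PRKO, 39.3 and 81.7 TPM in PRAKO, and 85.9 and 113 TPM in PRBKO.

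Promoters of the chain genes are shown here because many of these genes are known to share binding sites for NRF1, GABPA, YY1 and ESRRA, and because PGR binds its own element. RefSeq windows on GRCm38.p6, each with 250 bases before and 50 bases after a transcript start, were found for 80 of the 100 genes. Both strands were searched for 5 motifs. The NRF1 core GCATGCGC occurred in 12 of the 80 genes (15%), against 3.05% of all 27025 genes with a window. The YY1 motif AAGATGGCG occurred in 8 (10%), against 1.64% of all genes. The GABPA core CCGGAAGT occurred in 5 (6.25%), against 4.31%, and the ESRRA motif TCAAGGTCA in 2 (2.5%), against 0.466%. The progesterone response element core ACANNNTGT occurred in 0 of the 80, against 7.9% of all genes. In all, 26 of the 80 held at least 1 motif, and Uqcr11, a small complex III subunit, was the only one of the 80 with 2 kinds. A match is a description of the letters and not a mapped binding site. The other 5 promoters belong to genes named in the comparisons below: the assembly factors Sdhaf3, Ndufaf3, Ndufaf5 and Ndufaf8 and the iron-sulphur subunit of complex II, Sdhb. Capitals mark the motifs. In Ndufaf5 the forward and reverse matches of the NRF1 core overlap, Ndufaf8 holds the YY1 motif, and Sdhaf3 and Ndufaf3 hold none of the 5.
Uqcr11, chr10:80406772-80407071, minus strand: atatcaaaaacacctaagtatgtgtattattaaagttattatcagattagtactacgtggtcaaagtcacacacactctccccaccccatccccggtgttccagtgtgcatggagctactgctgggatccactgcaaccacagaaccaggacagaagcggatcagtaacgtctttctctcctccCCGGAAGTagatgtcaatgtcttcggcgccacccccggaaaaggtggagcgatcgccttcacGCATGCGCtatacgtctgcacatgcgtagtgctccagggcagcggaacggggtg
Sdhaf3, chr6:6955768-6956067, plus strand: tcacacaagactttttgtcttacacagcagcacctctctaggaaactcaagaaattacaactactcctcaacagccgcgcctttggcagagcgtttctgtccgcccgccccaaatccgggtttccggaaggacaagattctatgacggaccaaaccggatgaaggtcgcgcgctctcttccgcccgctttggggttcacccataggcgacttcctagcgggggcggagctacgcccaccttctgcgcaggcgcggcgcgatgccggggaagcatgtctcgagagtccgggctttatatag
Ndufaf3, chr9:108567387-108567686, minus strand: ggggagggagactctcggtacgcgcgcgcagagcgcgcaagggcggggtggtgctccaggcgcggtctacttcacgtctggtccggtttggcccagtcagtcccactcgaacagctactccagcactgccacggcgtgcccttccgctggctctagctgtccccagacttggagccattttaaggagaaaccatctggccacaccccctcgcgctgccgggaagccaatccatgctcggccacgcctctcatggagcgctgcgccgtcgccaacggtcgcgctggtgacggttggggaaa
Ndufaf5, chr2:140170396-140170695, plus strand: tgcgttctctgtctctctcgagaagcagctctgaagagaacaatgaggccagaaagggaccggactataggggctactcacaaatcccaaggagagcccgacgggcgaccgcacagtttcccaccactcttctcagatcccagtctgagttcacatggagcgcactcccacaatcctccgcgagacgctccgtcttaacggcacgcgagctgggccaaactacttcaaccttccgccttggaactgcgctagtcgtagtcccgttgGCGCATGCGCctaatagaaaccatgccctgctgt
Ndufaf8, chr11:120098684-120098983, plus strand: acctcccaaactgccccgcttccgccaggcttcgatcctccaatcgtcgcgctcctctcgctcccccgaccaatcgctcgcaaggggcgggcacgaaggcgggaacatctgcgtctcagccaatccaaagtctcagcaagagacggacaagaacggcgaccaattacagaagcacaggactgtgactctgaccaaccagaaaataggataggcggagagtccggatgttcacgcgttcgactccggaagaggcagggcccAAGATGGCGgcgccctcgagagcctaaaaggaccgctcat
Sdhb, chr4:140961021-140961320, plus strand: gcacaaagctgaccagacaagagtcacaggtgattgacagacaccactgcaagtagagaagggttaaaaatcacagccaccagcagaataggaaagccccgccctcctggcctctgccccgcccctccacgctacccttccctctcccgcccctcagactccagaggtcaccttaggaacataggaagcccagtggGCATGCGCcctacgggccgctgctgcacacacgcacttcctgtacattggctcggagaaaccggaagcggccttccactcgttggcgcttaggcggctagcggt

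In WT cells the chain was expressed at high level. Over the 9 WT libraries the median subunit of complex I, core and accessory together, stood at 199 TPM, of complex II at 115 TPM, of complex III at 280 TPM, of complex IV at 785 TPM and of complex V at 493 TPM. Within a complex the levels were unequal, although 1 copy or a few copies of each subunit are built in. Complex I ranged 30.5-fold, with Ndufa3 highest (704 ± 52.5 TPM, SD, n = 9) and Ndufa11, a membrane-arm subunit, lowest (23.1 ± 1.52 TPM). Complex II ranged 2.03-fold, with Sdhb at 213 ± 18.9 TPM and its membrane anchor Sdhc at 105 ± 4.93 TPM. In complex III, Uqcrb (511 ± 35.7 TPM) was highest and the Rieske iron-sulphur protein Uqcrfs1 (50.5 ± 7.03 TPM) lowest. In complex IV, Cox6a1 was highest (1875 ± 233 TPM) and the heart and muscle isoform Cox8b lowest (0.0952 TPM on average, at 0 in most libraries). In complex V, Atp5k (1072 ± 108 TPM) was highest and Atp5pb, of the peripheral stalk, lowest (178 ± 11.8 TPM). The 12 assembly factors had a median of 15.9 TPM. Ndufaf5 was the lowest of them (8.69 TPM) and Ndufaf2 the highest (88.8 TPM), which is above the lowest complex I subunits.

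**Figure D1:**
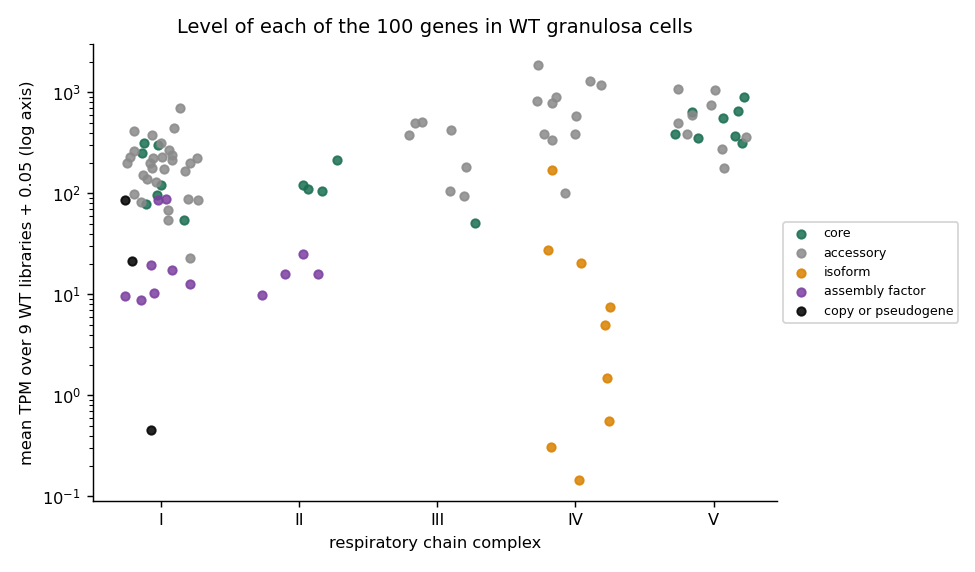
Level of each of the 100 genes, as the mean TPM over the 9 WT libraries plus 0.05 on a log axis, by complex, with 1 point per gene coloured by role. Core and accessory subunits lie between 23.1 and 1875 TPM, and assembly factors between 8.69 and 88.8 TPM.

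Summed over the 100 genes, the chain made up between 2.66% and 3.28% of protein-coding TPM in all 18 libraries. The 85 structural genes summed to 29754 ± 2451 TPM in PRKO KO cells and 30042 ± 2046 TPM in PRKO WT cells (SD, n = 3 each here and in the sums that follow). The sums were 29263 ± 1137 TPM in PRAKO KO and 28016 ± 1628 TPM in PRAKO WT cells. They were 27394 ± 319 TPM in PRBKO KO and 27113 ± 985 TPM in PRBKO WT cells. In each strain the KO and WT libraries overlapped, and the ratios of KO to WT means were 0.990, 1.04 and 1.01.

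By complex, the sums of KO and WT libraries overlapped in 14 of 15 cases, and complex II in PRKO was the exception. Its 4 subunits summed to 504, 515 and 521 TPM in PRKO KO libraries, against 553, 539 and 569 TPM in PRKO WT libraries, so all 3 KO libraries were lower. Of these subunits only Sdhb, at a log2 fold change of −0.19, had KO and WT libraries without overlap. Sdha, Sdhc and Sdhd were at −0.06, −0.07 and −0.03, each with overlap. In PRAKO the complex II sum averaged 561 ± 10.2 TPM in KO and 538 ± 13.9 TPM in WT cells, and in PRBKO 580 ± 20.3 TPM in KO and 552 ± 21.0 TPM in WT cells. Sums over members were given no test. The largest sums, of complexes IV and V, averaged 9642 ± 797 and 9911 ± 741 TPM in PRKO KO cells, against 9615 ± 548 and 9753 ± 692 TPM in PRKO WT cells. The ratio of KO to WT for complexes I, III, IV and V lay between 0.956 and 1.07 over the 3 strains. Libraries of 1 group differed by as much: the complex I sum ran between 6719 and 8065 TPM within PRKO KO.

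**Figure D2:**
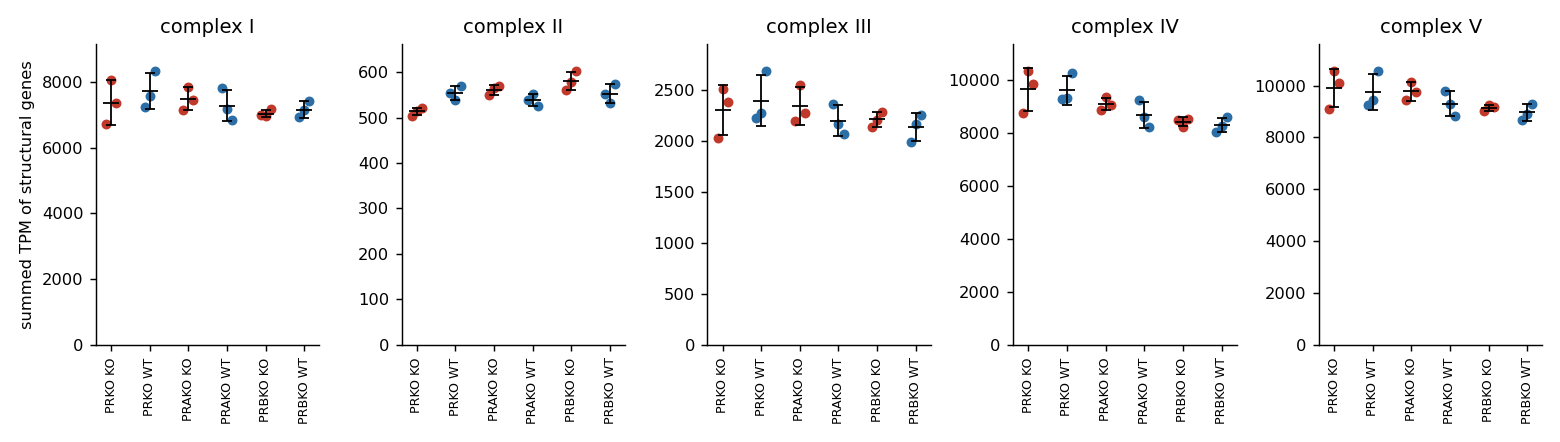
Summed TPM of the structural genes of each complex, from complex I on the left to complex V on the right, with 1 point per library, KO (red) left of WT (blue) in each strain, and bars for the mean and SD of 3 libraries. KO and WT overlap everywhere except for complex II in PRKO, where KO libraries reach 521 TPM and WT libraries start at 539 TPM.

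Ndufb8, Sdhb, Uqcrc2 and Atp5a1 are the nuclear genes whose proteins the antibody panel against the chain recognises, and they belong to complexes I, II, III and V in that order. None of these 4 transcripts passed the limma test with Benjamini-Hochberg adjustment in any strain. Ndufb8, an accessory subunit of the membrane arm, had 217, 285 and 253 TPM in PRKO KO libraries, against 240, 257 and 277 TPM in PRKO WT libraries (log2 fold change −0.04 ± 0.11, SE, adjusted p = 0.901). Its log2 fold change was 0.09 ± 0.08 in PRAKO (adjusted p = 0.515) and 0.05 ± 0.04 in PRBKO (adjusted p = 0.410). Uqcrc2, a core-protein subunit of complex III, had 101, 104 and 102 TPM in PRAKO KO libraries, against 106, 109 and 108 TPM in PRAKO WT libraries, without overlap but with a log2 fold change of only −0.07 ± 0.04 (adjusted p = 0.326). Atp5a1, the alpha subunit of the ATP synthase head, had 540, 567 and 591 TPM in PRKO KO and 566, 561 and 593 TPM in PRKO WT libraries. Its 95% intervals on the log2 scale ran from −0.17 to 0.13 in PRKO, from −0.09 to 0.13 in PRAKO and from −0.06 to 0.15 in PRBKO.

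**Figure D3:**
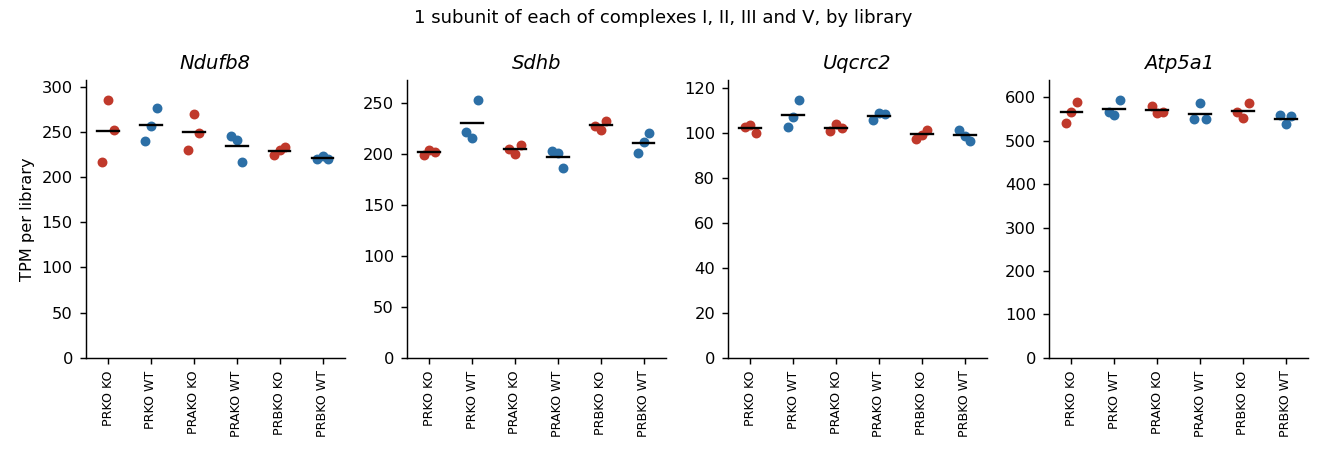
TPM of Ndufb8, Sdhb, Uqcrc2 and Atp5a1 in each library, with KO (red) left of WT (blue) in each strain and a line at the mean of 3 libraries. Atp5a1 lies between 538 and 593 TPM throughout, and the 3 PRKO KO libraries lie below the 3 PRKO WT libraries for Sdhb.

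In PRKO, 0 of the 96 chain genes that could be tested rose and 0 fell at an adjusted p of 0.05, with limma on log2(TPM + 0.5) and adjustment over all 15793 genes tested. Over all those genes 2.9% were called higher and 5.01% lower. At an unadjusted p under 0.05, 3 chain genes were lower and 0 higher in KO, where 11.1% of all genes were lower and 9.14% higher. Among them were Ndufa9, an accessory subunit at the junction of the arms of complex I, and Sdhb. Sdhb had 200, 204 and 202 TPM in PRKO KO libraries, against 222, 216 and 253 TPM in PRKO WT libraries. All KO libraries were lower, with a log2 fold change of −0.19 ± 0.07 (SE, adjusted p = 0.203 by limma). Ndufa9 had 49.4, 50.3 and 47.1 TPM in KO and 55.7, 52.5 and 57.4 TPM in WT libraries (−0.17 ± 0.06, adjusted p = 0.186). In 1 fit of all 18 libraries, which shares its estimate of the spread, 2 of 97 chain genes were lower in KO, Sdhb among them, against 8.38% of all genes in that fit.

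The median log2 fold change of the 96 genes in PRKO was −0.03, against −0.0031 for all genes tested, and 33 of the 96 were above 0. The sign of this median rested on single libraries: it was 0.0296 without KO replicate 1 and 0.0125 without WT replicate 3. By complex the medians were −0.06 for complex I, −0.05 for II, −0.05 for III, −0.02 for IV and 0.00 for V. The extremes were Ndufa4l2 at −0.27 ± 0.19 and Sdhaf3 at 0.30 ± 0.19, and neither passed. For all 96 genes the 95% interval of the change lay inside a 2-fold change in either direction, and for 90 it lay within ± 0.5 on the log2 scale, that is within 1.41-fold. A stricter threshold, an adjusted p of at most 0.01 with at least a 2-fold change, was met by 1.86% of all genes and by 0 chain genes. Beside these values, the 3 erythroid markers that could be tested rose in PRKO KO (the summed erythroid level ran between 480 and 813 TPM in KO and between 138 and 302 TPM in WT), 2 of 10 oocyte markers fell (summed level 467 to 577 TPM in KO, 598 to 694 TPM in WT), and their part in the chain values was not tested. No listed marker of either kind was at 0 throughout a group.

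In PRAKO, 2 of 96 chain genes rose and 0 fell at an adjusted p of 0.05, and both that rose encode assembly factors. Over all 15614 genes tested 5.92% were called higher and 7.03% lower, so the share of chain genes called was below that of all genes. Sdhaf3, which helps to mature the iron-sulphur subunit of complex II, had 19.3, 24.5 and 24.5 TPM in PRAKO KO libraries, against 17.1, 12.7 and 14.9 TPM in PRAKO WT libraries. Every KO library was above every WT library, and Sdhaf3 rose by 0.60 ± 0.14 on the log2 scale (SE, 95% interval 0.27 to 0.93, adjusted p = 0.0324 by limma), a ratio of means of 1.53. Ndufaf3, an early assembly factor of complex I, had 22.4, 22.6 and 23.1 TPM in PRAKO KO libraries, against 20.05, 17.99 and 17.97 TPM in PRAKO WT libraries. It rose by 0.28 ± 0.07 (interval 0.11 to 0.44, adjusted p = 0.0426), also without overlap.

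The next smallest p-values in PRAKO belonged to assembly factors of complex I as well. Ndufaf8 had 99.6, 90.9 and 103 TPM in KO, against 86.3, 83.6 and 85.5 TPM in WT libraries (0.20 ± 0.06, adjusted p = 0.0719), and Ndufaf1, a member singled out for mention after its values were seen, had 17.5, 16.4 and 16.9 TPM in KO, against 14.7, 14.6 and 12.9 TPM in WT libraries (0.26 ± 0.08, adjusted p = 0.0815). Neither passed. Over the 12 assembly factors 11 had a positive log2 fold change, with a median of 0.20, while the medians were 0.04 for the 20 core subunits, 0.07 for the 56 accessory subunits and 0.01 for all genes tested. In PRKO and PRBKO the assembly factors had medians of 0.01 and −0.06, beside −0.0031 and −0.08 for all genes. Classes were given no test, and the split by role was looked at after the values were seen.

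Among the subunits themselves, none passed in PRAKO. Uqcrfs1, the Rieske protein, had 47.4, 58.3 and 58.3 TPM in KO, against 45.2, 47.2 and 40.9 TPM in WT libraries (0.29 ± 0.10, adjusted p = 0.109). Atp5g1 and Atp5g2, 2 of the 3 genes that encode the same mature c subunit of the ATP synthase rotor, were at 0.13 ± 0.04 and 0.20 ± 0.07 (adjusted p = 0.107 and 0.132). Cox7c and Cox7a2, small accessory subunits of complex IV, were at 0.24 ± 0.09 and 0.14 ± 0.05 (adjusted p = 0.127 and 0.130). The median over the 96 genes was 0.07, against 0.01 for all genes tested, and 73 of the 96 were above 0. By complex the medians were 0.07 for I, 0.11 for II, 0.11 for III, 0.04 for IV and 0.05 for V. At an unadjusted p under 0.05, 15 of the 96 chain genes were higher and 0 lower in KO, where 14.0% of all genes were higher and 12.9% lower. The 95% interval lay inside a 2-fold change for 95 of 96 genes, Cox6a2 being the exception, and within ± 0.5 on the log2 scale for 87. The 2-fold threshold was met by 2.28% of all genes and by 0 chain genes.

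**Figure D4:**
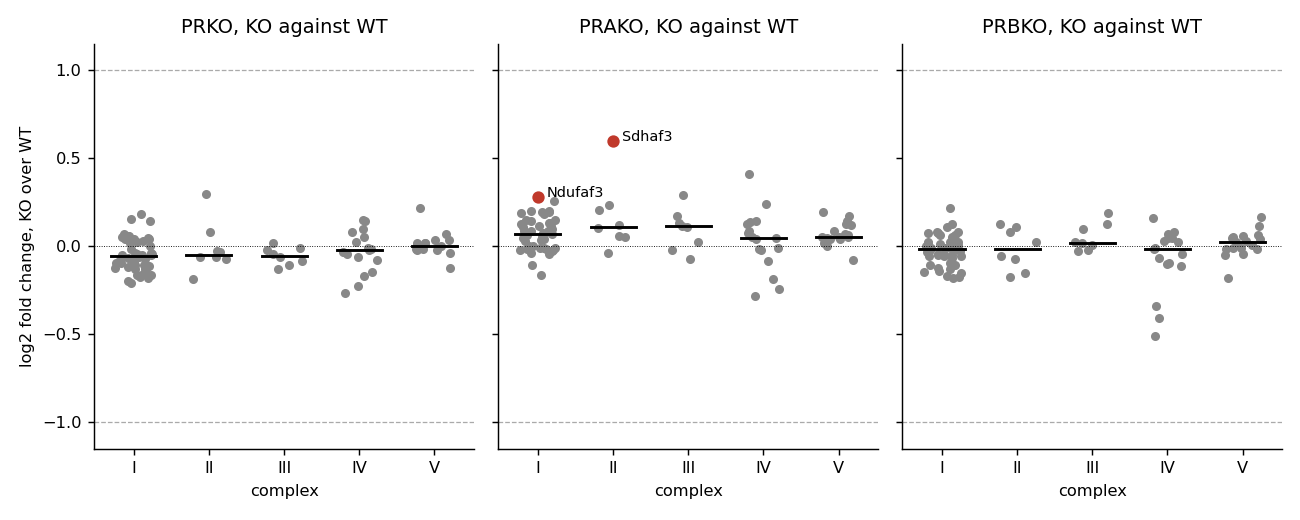
log2 fold change, KO over WT, of the 96 chain genes tested in each strain, by complex, with a bar at the median and dashed lines at a 2-fold change. Red points with a name passed an adjusted p of 0.05, which only Sdhaf3 (0.60) and Ndufaf3 (0.28) in PRAKO did.

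The PRAKO count rested on single libraries and on the scale. Without KO replicate 2 it was 3, without KO replicate 3 it was 1, without KO replicate 4 it was 0, without WT replicate 1 it was 3, and without WT replicate 2 or WT replicate 3 it was 0, with Cox4i2 then lower in the last of these fits. Sdhaf3 passed in 2 of those 6 fits, with a log2 fold change between 0.49 and 0.71 over the 6, and Ndufaf3 passed in 1, with 0.25 to 0.33. On TPM as deposited, not rescaled, 57 of 95 chain genes were higher in PRAKO KO, but there the median of all genes was itself 0.22 on the log2 scale and 4170 of 13910 genes (30.0%) were called higher and 627 (4.51%) lower, against 924 higher and 1098 lower on the protein-coding scale. Relative to the median of all genes the chain stood at 0.06 on the deposited scale and at 0.05 on the protein-coding scale. On the protein-coding scale this value was −0.0158 without WT replicate 3, 0.0109 without KO replicate 3 and 0.1333 without WT replicate 1. Beside the PRAKO values, 5 of 12 granulosa markers rose and 1 fell (summed level 8123 to 9073 TPM in KO, 5958 to 6258 TPM in WT), 4 of 6 theca markers fell (80.8 to 91.5 TPM in KO, 110 to 119 TPM in WT) and 2 of 8 endothelial markers fell (50.5 to 62.5 TPM in KO, 108 to 124 TPM in WT). Most of the granulosa sum was Inha and Cyp11a1. Inha was at 4783 ± 296 TPM in KO and 3744 ± 175 TPM in WT, and Cyp11a1 at 2192 ± 270 and 1049 ± 86.2 TPM (SD, n = 3 each). Fshr was the granulosa marker that fell. Most of the endothelial sum in WT was Cdh5, at 70.7 ± 6.96 TPM in WT and 20.3 ± 2.33 TPM in KO (SD, n = 3 each). Tek, the other endothelial marker that fell, was at 1.67 ± 0.144 TPM in WT and 0.949 ± 0.161 TPM in KO. None of these markers was at 0 throughout a group, their part in the chain values was not tested, and in pooled cells fewer cells of a type cannot be told apart from less RNA per cell.

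In PRBKO, 0 of 96 chain genes rose and 0 fell at an adjusted p of 0.05 by limma, and 2 were higher and 4 lower at an unadjusted p under 0.05, where 5.27% of all genes were higher and 19.4% lower. Over all 15712 genes tested 0.433% were called higher and 1.33% lower, and the 2-fold threshold was met by 0.0446% of all genes and by 0 chain genes. Cox5a, a complex IV subunit on the matrix side, had 411, 388 and 426 TPM in PRBKO KO libraries, against 364, 363 and 368 TPM in PRBKO WT libraries (0.16 ± 0.05, SE, adjusted p = 0.113). Cox6b2, the testis isoform of a subunit facing the intermembrane space, had 16.9, 15.3 and 21.9 TPM in KO, against 22.1, 28.2 and 26.9 TPM in WT libraries (−0.51 ± 0.15, adjusted p = 0.115). In both genes the groups did not overlap, yet neither passed. Ndufa13, an accessory subunit of complex I, was at −0.18 ± 0.06 (adjusted p = 0.132) and Atp5e, the epsilon subunit of the ATP synthase, at −0.18 ± 0.06 (adjusted p = 0.148).

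The median over the 96 genes in PRBKO was −0.01, where the median of all genes tested was −0.08, and 76 of the 96 lay above the all-gene median. By complex the medians were −0.02 for I, −0.02 for II, 0.02 for III, −0.02 for IV and 0.02 for V. The 95% interval lay inside a 2-fold change for 95 of 96 genes, with Cox4i2 as the exception (−1.28 to 0.46), and within ± 0.5 on the log2 scale for 90. Beside these values, 5 of 10 oocyte markers fell (summed level 476 to 535 TPM in KO, 662 to 733 TPM in WT). Their part in the chain values was not tested, and no oocyte marker was at 0 throughout a group.

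Complex IV isoforms were read as shares of their pairs. Cox7a1, the heart and muscle form, made up between 5.03% and 9.86% of the Cox7a1 and Cox7a2 sum over the 18 libraries. Cox4i2, the oxygen-sensitive form, made up between 0.710% and 1.97% of the Cox4 pair, Cox6b2 between 1.22% and 3.65% of the Cox6b1 pair and Ndufa4l2 between 0.528% and 2.16% of its pair with Ndufa4. Cox6a2, the other heart and muscle form, stayed at or below 0.128%, and Cox8b was at 0 in 14 of the 18 libraries and never above 0.903 TPM. No isoform passed the test in any strain. Among the wider differences were Cox6b2, with a share of 2.48 ± 0.49% in PRBKO KO and 3.45 ± 0.26% in PRBKO WT cells (SD, n = 3 each), and Cox7a1, with 32.4, 36.4 and 27.97 TPM in PRAKO KO libraries, against 33.1, 19.8 and 21.1 TPM in PRAKO WT libraries, which overlapped (0.41 ± 0.20, adjusted p = 0.243). For the c subunit of complex V, Atp5g3 supplied the largest share in every group, with 50.3 ± 1.45% in PRKO KO and 49.5 ± 0.37% in PRKO WT cells, 45.0 ± 1.35% in PRAKO KO and 46.9 ± 0.85% in PRAKO WT cells, and 46.7 ± 5.00% in PRBKO KO and 48.0 ± 1.35% in PRBKO WT cells.

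Differences between the strains' KO effects were tested in 1 fit of the 18 libraries over 16633 genes. The median difference of all those genes was −0.01 for PRKO minus PRAKO, 0.08 for PRKO minus PRBKO and 0.09 for PRAKO minus PRBKO. In the 3 contrasts, which share strains and so are not independent, 4 differences passed. Between PRKO and PRAKO, 0 of 97 chain genes differed at an adjusted p of 0.05, where 0.673% of all genes were called higher and 0.884% lower, and 8 were lower and 0 higher at an unadjusted p under 0.05, where 6.43% of all genes were lower and 4.66% higher. The smallest p-values were those of Ndufs3, a core subunit of complex I (−0.21 ± 0.06, adjusted p = 0.124), Sdhb (−0.25 ± 0.08, adjusted p = 0.175) and Ndufab1, the mitochondrial acyl carrier protein (−0.32 ± 0.12, adjusted p = 0.268).

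Between PRKO and PRBKO, 0 chain genes were higher and 2 lower in the PRKO effect, against 4.76% and 5.1% of all genes. Sdhb had 228, 224 and 233 TPM in PRBKO KO, against 201, 212 and 221 TPM in PRBKO WT libraries, with all KO libraries higher, where in PRKO all KO libraries were lower. The difference of the effects was −0.30 ± 0.08 on the log2 scale (adjusted p = 0.0236 by limma). With size factors 0 chain genes passed. Leaving out PRBKO KO replicate 3 or PRBKO WT replicate 1 ended the Sdhb call, and its difference lay between −0.35 and −0.23 over the 12 fits that each left out 1 library.

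Between PRAKO and PRBKO, 2 chain genes were higher and 0 lower in the PRAKO effect, against 5.25% and 4.74% of all genes. Ndufaf5, an assembly factor of complex I, had 8.54, 8.73 and 9.30 TPM in PRAKO KO, against 8.26, 7.28 and 7.36 TPM in PRAKO WT libraries. In PRBKO it had 8.08, 7.82 and 7.66 TPM in KO, against 8.77, 8.99 and 8.86 TPM in WT libraries. KO lay above WT in every PRAKO library and below it in every PRBKO library, and the difference of the effects was 0.37 ± 0.11 (adjusted p = 0.0390). Sdhaf3 had 14.1, 17.8 and 16.9 TPM in PRBKO KO, against 19.2, 18.7 and 17.1 TPM in PRBKO WT libraries, and its effects differed by 0.77 ± 0.23 (adjusted p = 0.0446). With size factors, on TPM as deposited and without a filter on low values 0 chain genes passed. Leaving out PRAKO WT replicate 1 kept both calls, leaving out PRAKO KO replicate 2 kept Sdhaf3 alone, and leaving out any of the other 10 libraries ended both.

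**Figure D5:**
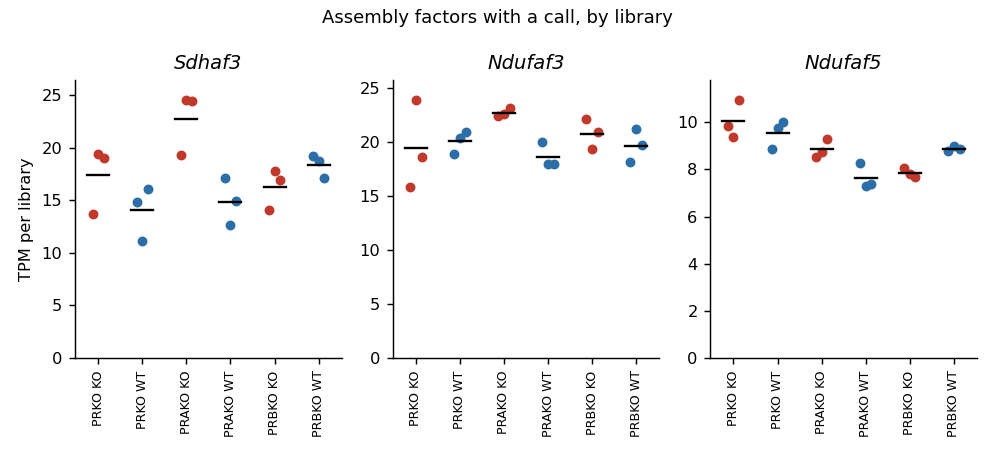
TPM of the assembly factors Sdhaf3, Ndufaf3 and Ndufaf5 in each library, with KO (red) left of WT (blue) in each strain and a line at the mean of 3 libraries. Sdhaf3 reaches 24.5 TPM in PRAKO KO and at most 17.1 TPM in PRAKO WT libraries, and Ndufaf5 lies at 7.66 to 8.08 TPM in PRBKO KO and at 8.77 to 8.99 TPM in PRBKO WT libraries.

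Other mitochondrial gene groups were read beside the chain, and their counts stand against the shares of all genes called given above (PRAKO 5.92% higher and 7.03% lower, PRKO 2.9% higher and 5.01% lower), which several of them lie near. Of 38 further chain genes that the symbol rule leaves out, such as copper chaperones, complex IV assembly factors and cytochrome c, 3 rose and 0 fell in PRAKO: Cox17, which delivers copper to complex IV (490 ± 12.2 TPM in KO and 397 ± 13.5 TPM in WT cells, SD, n = 3 each, log2 fold change 0.30 ± 0.05, adjusted p = 0.00616 by limma), Coa7 (0.39 ± 0.08, adjusted p = 0.0224) and, as the last of the 3, Coa6 (0.28 ± 0.07, adjusted p = 0.0469). In PRKO and PRBKO 0 of the 38 passed in either direction. Of 26 mitochondrial carrier and import genes, 4 rose in PRAKO and 1 in PRKO, led by the chaperonin gene Hspe1 (823 ± 24.4 TPM in KO and 495 ± 64.1 TPM in WT cells of PRAKO, 1318 ± 230 TPM in KO and 836 ± 32.4 TPM in WT cells of PRKO). Its partner Hspd1 rose in PRAKO by 0.36 ± 0.05 (adjusted p = 0.00442). Of 18 citric acid cycle genes, Suclg1 rose in PRAKO (0.29 ± 0.07, adjusted p = 0.0346) and Pdhb fell in PRKO (−0.24 ± 0.05, adjusted p = 0.0254). Of 78 mitochondrial ribosomal protein genes, 4 rose and 3 fell in PRAKO, 0 rose and 2 fell in PRKO and 0 passed in PRBKO. Of the nuclear regulators of mitochondrial genes, such as Nrf1, Tfam and Esrra, 0 passed among 21 tested in PRKO, 22 in PRAKO and 21 in PRBKO.

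Chain transcripts are short, 59 of the tested members being under 1000 bases, and length moved with the values to a small extent. Protein-coding genes with transcripts under 1000 bases had a median log2 fold change of 0.01 in PRKO, 0.06 in PRAKO and −0.04 in PRBKO, and chain genes of that length had −0.02, 0.06 and −0.01. Libraries with a high chain sum also had a high sum of cytosolic ribosomal proteins within PRKO: KO replicate 2 held 3.25% chain and 13.9% ribosomal protein TPM, while KO replicate 1 held 2.75% and 11.3%. The part of length in these values was not tested.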

How the data were processed

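RNA of granulosa cells was sequenced in 18 libraries, 3 KO and 3 WT in each of 3 strains. The authors deposited 1 table of TPM per transcript for each strain. Per the study's methods, ribosomal RNA was depleted, reads were quantified with Salmon against a GENCODE transcriptome of GRCm38.p6, and genes were tested with limma-voom. The submitters' processing notes also name FastQC and edgeR. The transcripts in the tables carry RefSeq accessions, and 42072 of 42251 matched a RefSeq gene. TPM were summed per symbol and rescaled to 1000000 over protein-coding genes. Genes with at least 1 TPM in at least 3 of 6 libraries (3 of 18 for differences between strains) were tested on log2(TPM + 0.5) with limma 3.58.1 (lmFit and eBayes with a trend, two-sided, R 4.3.3) and Benjamini-Hochberg adjustment over all genes tested. Fold changes on this scale understate changes of low genes. Of the 100 chain genes 4 (Ndufa11b, Cox7b2, Cox8b and Cox8c) did not pass the filter within a strain. Each library is a pool of mice, and p-values measure the spread between these pools. The test scripts were tested on simulated data. The alternatives were TPM as deposited, size factors, pseudocounts of 1 and 0.1, testing every gene, testing only genes that averaged 5 TPM or more, 1 fit of all libraries, a replicate block, and leaving out each library.

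The members and lists were chosen with earlier results of these data known. Genes were named by rule: the antibody-panel subunits, the 2 smallest p-values per strain and complex, any gene past the 2-fold threshold, the complex IV isoforms and their partners, the 3 smallest p-values of each difference between strains, the highest and lowest structural gene of each complex, and at most 2 genes of each further list. Coa6 was named beyond this limit, as the last of 3 genes of its list that passed in PRAKO. The granulosa markers Cyp11a1 and Fshr were also named beyond it, after their values were seen. Results for 1 gene are counted but not reported here by name. In RefSeq, 33 of the 100 genes overlap another gene and 10 have pseudogene copies named after them, whose reads could be counted with the parent. Marker lists for leukocytes and smooth muscle were also read: 0 leukocyte markers passed in any strain, and 2 of 6 smooth muscle markers fell, in PRAKO only. Of the cytosolic ribosomal protein genes 1 rose and 1 fell in PRAKO, with 0 in PRKO and PRBKO, and 0 proteasome subunit genes passed. Of the further marker lists, 1 granulosa and 1 theca marker fell in PRKO and in PRBKO, 2 endothelial markers fell and 1 rose in PRKO with 0 in PRBKO, and 0 erythroid markers passed in PRAKO or PRBKO and 0 oocyte markers in PRAKO. The granulosa marker that fell was Fshr in PRKO and Foxl2 in PRBKO. Yet summed granulosa levels were 9545 to 9844 TPM in PRKO KO and 7571 to 8637 TPM in PRKO WT. In PRBKO they were 6649 to 7172 TPM in KO and 7210 to 8920 TPM in WT. Oocyte sums in PRAKO were 594 to 693 TPM in KO and 702 to 1006 TPM in WT. Erythroid sums in PRBKO were 436 to 608 TPM in KO and 159 to 434 TPM in WT. The theca and endothelial sums of PRKO and PRBKO and the erythroid sum of PRAKO overlapped.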

Additional observations from a re-analysis of the deposited data

Results flagged for a closer look

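In Sdhb, Ndufaf5 and Sdhaf3 the KO effect differed between strains in the test of the difference itself. The PRKO effect minus the PRBKO effect was −0.30 on the log2 scale for Sdhb. The PRAKO effect minus the PRBKO effect was 0.37 for Ndufaf5 and 0.77 for Sdhaf3. The median difference of all genes was itself 0.08 for PRKO minus PRBKO and 0.09 for PRAKO minus PRBKO. Relative to these medians the differences were −0.38 for Sdhb, 0.28 for Ndufaf5 and 0.68 for Sdhaf3. Under the alternatives that did not leave out a library, the adjusted p of limma ran between 0.00281 and 0.0729 for Sdhb, between 0.0354 and 0.466 for Ndufaf5 and between 0.0364 and 0.213 for Sdhaf3. Groups of 3 libraries are too small for a test of single outlying libraries.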

How the results depend on the processing

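The scale mattered most. On TPM as deposited 57 chain genes were higher in PRAKO KO and 1 in PRBKO KO, 21 and 44 differed between PRKO and PRAKO and between PRKO and PRBKO, and 0 between PRAKO and PRBKO; the KO to WT ratio of the structural sum was 1.21 in PRAKO and 1.26 in PRBKO, the medians of genes under 1000 bases were −0.0908 in PRKO, 0.28 in PRAKO and 0.27 in PRBKO, and the PRKO minus PRBKO difference of Atp5g1 turned to −0.41 (adjusted p = 0.03417 by limma). The all-gene medians on that scale were −0.10, 0.22 and 0.22 in PRKO, PRAKO and PRBKO. Of all genes, 34.5% were called in either direction in PRAKO and 3.48% in PRBKO. For the differences, 13.8% of all genes were called for PRKO minus PRAKO, 27.5% for PRKO minus PRBKO and 6.02% for PRAKO minus PRBKO. The all-gene medians of these differences were −0.30, −0.31 and −0.0030. With size factors 1 gene was higher in PRAKO, 0 differed between PRKO and PRBKO or between PRAKO and PRBKO, the PRBKO ratio was 1.07 and the PRBKO median of short genes 0.0362. Without a filter 0 were higher in PRAKO, 0 differed between PRAKO and PRBKO, the PRBKO median relative to all genes was 0.0171, and the medians of short genes were 0.0168 in PRAKO and 0.0644 in PRBKO. In 1 fit of all libraries 2 genes were lower in PRKO and 1 higher in PRAKO. The causes were not tested, beyond what each scale or filter changes by construction.

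Leaving out 1 library at a time gave 0 genes in PRKO and PRBKO, 0 to 3 genes higher and 0 to 1 lower in PRAKO, 0 to 1 between PRKO and PRAKO, 0 to 3 between PRKO and PRBKO and 0 to 2 between PRAKO and PRBKO. The median of the chain relative to all genes then ran between −0.09 and 0.07 in PRKO, −0.02 and 0.13 in PRAKO and 0.04 and 0.11 in PRBKO. With 2 libraries left in a group, limma pools the spread over groups. Deviations of same-numbered KO and WT libraries were weakly correlated over genes (between −0.11 and 0.11 in PRKO, −0.03 and 0.02 in PRAKO, −0.01 and 0.03 in PRBKO). Other-numbered libraries of PRKO ran between −0.22 and 0.16. With so few pairs this cannot show whether the numbers pair the samples, and the main fits did not pair them. The replicate block kept only replicate numbers present in both genotypes. It therefore left out KO replicate 4 and WT replicate 1 in PRAKO, and KO replicate 3 and WT replicate 4 in PRBKO. With this block 1 gene, Cox7a1, was higher in PRAKO and 0 in PRKO and PRBKO, and the PRAKO median relative to all genes was 0.1463. Without PRAKO WT replicate 1 alone that median was 0.1333. By construction a block of complete pairs leaves each fold change as it was. In PRKO, where the block left out no library, the median relative to all genes stayed at −0.0311. The block moved the PRAKO median only through the libraries left out. For the PRAKO count, blocking and the libraries left out cannot be told apart. The 2-fold count was 0 in each strain under each alternative. Of 3823 values of 41 named genes under the alternatives, 3420 kept their side of the threshold or moved by less than the spread between replicates. TPM keep no depth per library, and with 3 libraries a group changes smaller than the intervals given above could not be told from 0.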
